A study of Homo sapiens with 24 samples.

Results

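The genes described here are 43 genes of the G2/M transition and of mitosis, chosen by name from the 58735 rows of a gene count table: cyclins and kinases of mitotic entry, motor proteins, kinetochore and spindle proteins, cytokinesis factors, and genes of chromosome separation and proteolysis. Their transcripts were counted by RNA-seq of poly(A)-selected RNA in 24 libraries of OE33 and SK-GT-4, both established cell lines of esophageal adenocarcinoma. Each line was present as a Cas9 control, which expresses Cas9 and keeps cGAS, and as a CRISPR-Cas9 cGAS KO, and each genotype received DMSO or 0.5 μM of the MPS1 inhibitor reversine (MPS1i) for 48 hours. Each of the 8 groups held 3 libraries, 1 from each of 3 batches, and the counts summed to between 15561268 and 25284177 reads per library. The submitters describe the genotypes as clones and number no clone, so each is read here as 1 clone grown in 3 batches. A difference between clones and an effect of cGAS loss cannot be told apart, and p-values measure the spread between batches of a clone.

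CGAS itself was checked first. Its level in CPM, the read count scaled to a common library size, was 28.9 to 41.6 in the OE33 Cas9 libraries and 2.31 to 2.82 in 5 of the 6 OE33 cGAS KO libraries, while the OE33 cGAS KO DMSO library of batch 2 stood at 15.6. In SK-GT-4 it was 14.7 to 26.1 with Cas9 and 2.22 to 6.09 in the cGAS KO. The epithelial keratins KRT8, KRT18 and KRT19 were high in both lines, while CDH1, the epithelial cadherin, was 3.83 to 13.8 CPM in SK-GT-4 Cas9 and 21.4 to 224 CPM in SK-GT-4 cGAS KO. EPCAM, a further epithelial gene, was also lower in SK-GT-4 Cas9. It had 904 to 1823 reads per library there, 4148 to 7333 in SK-GT-4 cGAS KO and 9982 to 17749 in OE33. The leukocyte genes PTPRC, CD3E and CD68 stayed at or under 0.285 CPM in all 24 libraries and the fibroblast gene DCN at or under 0.0537 CPM, although the collagen gene COL1A1 reached 71.6 CPM and the endothelial gene PECAM1 9.19 CPM in SK-GT-4. Of the 12 SK-GT-4 libraries 2 stood apart in that their counts fell steeply with transcript length. In Cas9 MPS1i batch 2 a gene's level relative to its mean in the line fell by 0.378 on the log2 scale per doubling of its length, and in cGAS KO DMSO batch 1 by 0.452, whereas the slopes of the other SK-GT-4 libraries lay between -0.0384 and 0.247. Over the 43 genes alone the slopes were -0.589 and -0.727 in those libraries, and their median level relative to the SK-GT-4 mean was -0.56 in the former and 0.02 in the latter on the log2 scale. In the other SK-GT-4 libraries the slopes of the 43 genes lay between -0.103 and 0.542, the steepest rises being 0.542 and 0.506 in the batch 2 libraries of the cGAS KO with DMSO and MPS1i and 0.319 in batch 3 of the cGAS KO with MPS1i. The SK-GT-4 medians, the main counts and most of the named differences below are given with the length-dependent libraries and again without both. The slopes of the OE33 libraries lay between -0.137 and 0.096, and over the 43 genes alone between -0.303 and 0.313. Both ends were cGAS KO DMSO libraries, the lower of batch 1 and the upper of batch 3. No OE33 library was left out for its slope.

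Entry into mitosis is driven by CDK1 bound to cyclin B, which is switched on by CDC25 phosphatases and by a loop through AURKA and PLK1. Most genes of this program are transcribed late in the cell cycle, through FOXM1, B-MYB and the MuvB complex at promoters that carry the cell cycle genes homology region (CHR), and through NF-Y at CCAAT boxes. In cells that stop dividing the p53, p21 and DREAM route silences the same promoters. MPS1, the kinase that reversine inhibits, is encoded by TTK and holds the spindle assembly checkpoint, so that its loss lets cells leave mitosis before all chromosomes are attached.

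Promoters of 38 of the 43 genes were found in the RefSeq promoter table of GRCh38.p14, which gives 250 bases before and 50 bases after each start. AURKA, FOXM1, TPX2, RACGAP1 and UBE2C were not in it. The CHR was searched as TTTGAA or TTCGAA and the CCAAT box as CCAAT, on both strands, and a CHR and a CCAAT word can share at most 1 end base. A CHR word was present in 27 of the 38 promoters (71.1%), against 16.4% of the 35114 promoters of the table, and a CCAAT word in 29 (76.3%), against 34.6%. Both words occurred in 24 (63.2%), against 6.38% of all promoters. Such words mark a sequence, not an occupied site. The bases before the start are shown for the members that differed between the cell lines below and, as members with neither word, for TACC3 among these and for CDC25B. PLK1, chosen after its values were seen, is added as a promoter with both words near the start. The printed bases run 5′ to 3′ along the strand of the gene and end at the base before the start, with CHR and CCAAT words on either strand in capitals. PLK1 lies at chr16:23678739-23678888 on the plus strand, PRC1 at chr15:90994536-90994685 on the minus strand, TOP2A at chr17:40417897-40418046 on the minus strand, KIF20B at chr10:89701440-89701589 on the plus strand, NEK2 at chr1:211675622-211675771 on the minus strand, NUF2 at chr1:163321804-163321953 on the plus strand, TACC3 at chr4:1720481-1720630 on the plus strand and CDC25B at chr20:3786801-3786950 on the plus strand.
PLK1: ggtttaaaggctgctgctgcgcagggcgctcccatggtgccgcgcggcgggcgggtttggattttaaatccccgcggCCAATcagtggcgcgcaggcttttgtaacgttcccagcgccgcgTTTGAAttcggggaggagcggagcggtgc
PRC1: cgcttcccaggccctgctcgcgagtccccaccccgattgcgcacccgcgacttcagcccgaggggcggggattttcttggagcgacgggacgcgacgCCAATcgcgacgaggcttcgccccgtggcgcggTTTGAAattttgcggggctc
TOP2A: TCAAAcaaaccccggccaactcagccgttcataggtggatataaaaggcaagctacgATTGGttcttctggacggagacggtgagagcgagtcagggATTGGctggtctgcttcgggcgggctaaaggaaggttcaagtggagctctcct
KIF20B: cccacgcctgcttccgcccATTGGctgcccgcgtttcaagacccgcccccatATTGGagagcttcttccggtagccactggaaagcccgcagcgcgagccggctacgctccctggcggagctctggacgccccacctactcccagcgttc
NEK2: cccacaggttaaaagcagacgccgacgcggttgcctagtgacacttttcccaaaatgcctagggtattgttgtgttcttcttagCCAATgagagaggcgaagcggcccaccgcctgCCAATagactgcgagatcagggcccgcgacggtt
NUF2: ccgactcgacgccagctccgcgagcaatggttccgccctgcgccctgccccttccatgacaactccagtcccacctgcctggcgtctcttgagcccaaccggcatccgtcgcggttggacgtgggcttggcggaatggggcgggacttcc
TACC3: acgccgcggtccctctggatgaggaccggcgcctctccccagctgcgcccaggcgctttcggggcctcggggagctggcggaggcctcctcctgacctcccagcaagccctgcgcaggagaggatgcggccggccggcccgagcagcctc
CDC25B: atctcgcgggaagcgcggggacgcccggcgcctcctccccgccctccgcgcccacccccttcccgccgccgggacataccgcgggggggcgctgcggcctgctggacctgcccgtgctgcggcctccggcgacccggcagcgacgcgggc
In PLK1 the CHR word lies at position -29 and the CCAAT word at -73, counted back from the start, and in PRC1 at -20 and -53. The capitals that open the TOP2A stretch are the end of a CHR word that begins further upstream. KIF20B and NUF2 have their CHR words downstream of the start, outside the printed bases.

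All 43 genes passed the filter on low counts in both lines, and they spanned a wide range of levels. Compared per length, as RPKM (CPM divided by the transcript length in kilobases), the same 3 genes led in both lines. UBE2C, the ubiquitin-conjugating enzyme of the anaphase-promoting complex, had a median of 155 RPKM over the 12 OE33 libraries and 107 RPKM over the 12 SK-GT-4 libraries. CCNB1, which encodes cyclin B1, had 103 and 104 RPKM, and TPX2, the spindle assembly factor that activates AURKA, had 87.0 and 85.7 RPKM. The mitotic kinases followed in OE33, while in SK-GT-4 TOP2A at 68.9 RPKM and ANLN at 62.0 RPKM, which had 32.1 and 38.7 RPKM in OE33, came before them. The kinases lay close together, with CDK1 at 52.8 and 47.6 RPKM, PLK1 at 45.1 and 47.7 RPKM and AURKA at 42.0 and 47.6 RPKM in OE33 and SK-GT-4. The lowest levels were those of PRC1, the midzone crosslinker, at 0.212 and 0.0763 RPKM, and of the kinetochore motor CENPE at 0.449 and 0.318 RPKM. PRC1 rested on only 4 to 31 reads per library, and its row overlaps another protein-coding gene on the same strand. NUSAP1, a spindle microtubule protein with 105 to 250 reads, overlaps another coding gene in the same way, as do CENPA and KIF15, so the counts of these 4 genes could be incomplete. Other members, among them CCNA2, FOXM1 and KIF20A, overlap genes of the other strand. The strand setting of the counting is not given, so their counts could be affected too.

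**Figure D1:**
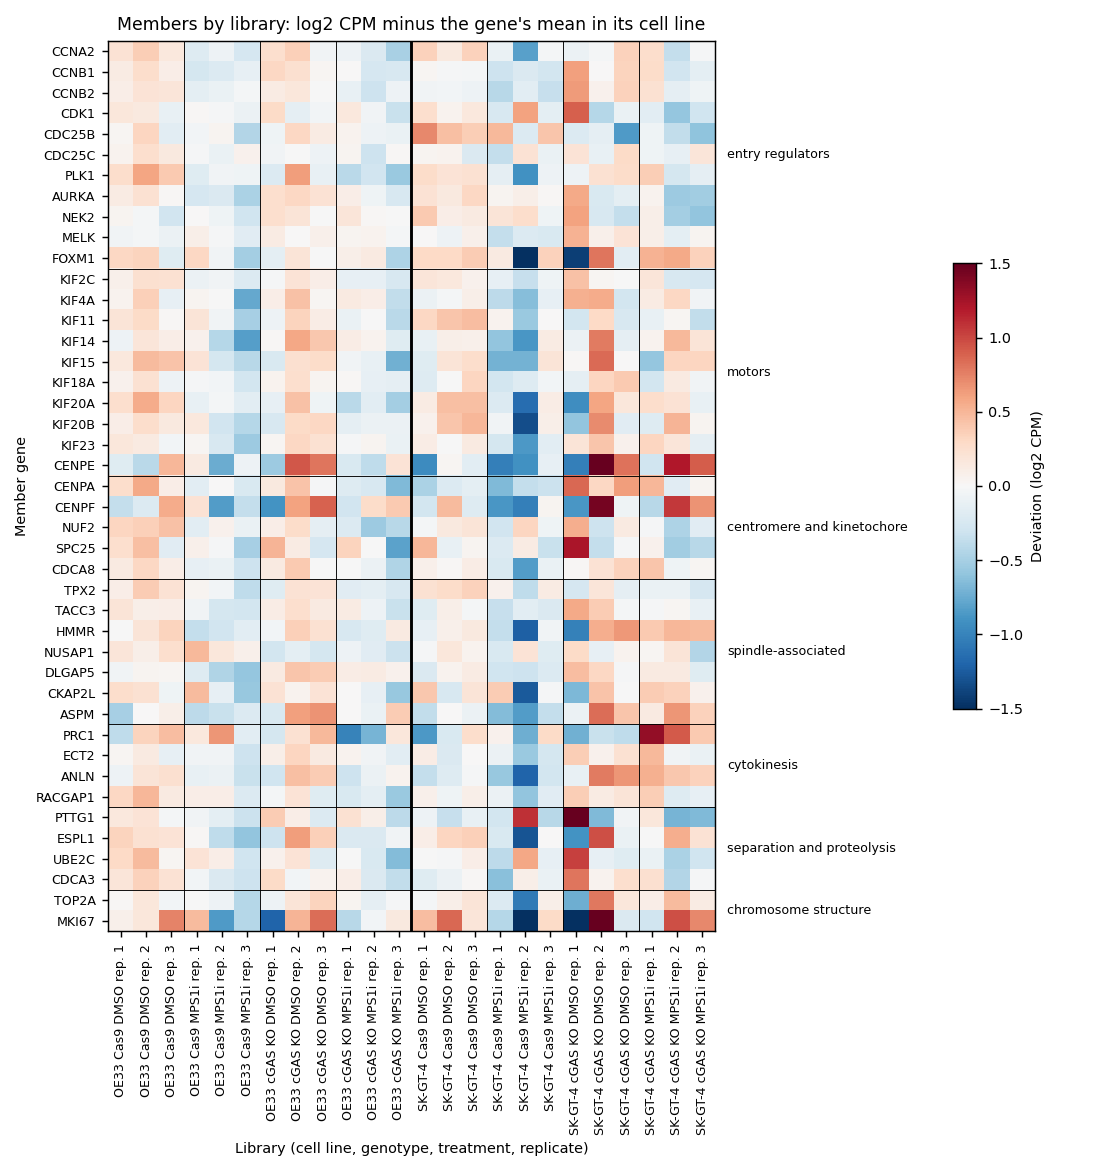
Levels of the 43 genes (one line each, by role) in the 24 libraries (columns, by group), as log2 CPM minus the mean of the gene over the 12 libraries of its cell line. The colour scale is clipped at -1.5 and 1.5, and the 2 length-dependent SK-GT-4 libraries appear as columns that stand apart from their groups.

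Genes differed in how far they varied between libraries of the same group. MKI67, the Ki-67 proliferation marker and the longest of the 43 transcripts at 12807 bases, had the largest spread within groups in both lines, with a residual SD on the log2 scale of 0.711 for OE33 and 1.16 for SK-GT-4. In SK-GT-4, FOXM1, the transcription factor of the program, followed with 0.998, and PTTG1, the separase inhibitor securin, with 0.873. FOXM1 stood at 12.5 and 20.6 CPM in the 2 length-dependent libraries and at 49.3 to 96.4 CPM in the other 10. PTTG1, a transcript of 2013 bases, went the other way, with 176 and 338 CPM in those libraries and 50.7 to 92.3 CPM in the others. At the other end, NEK2, a centrosome kinase, had the smallest residual SD in OE33 at 0.0532.

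**Figure D2:**
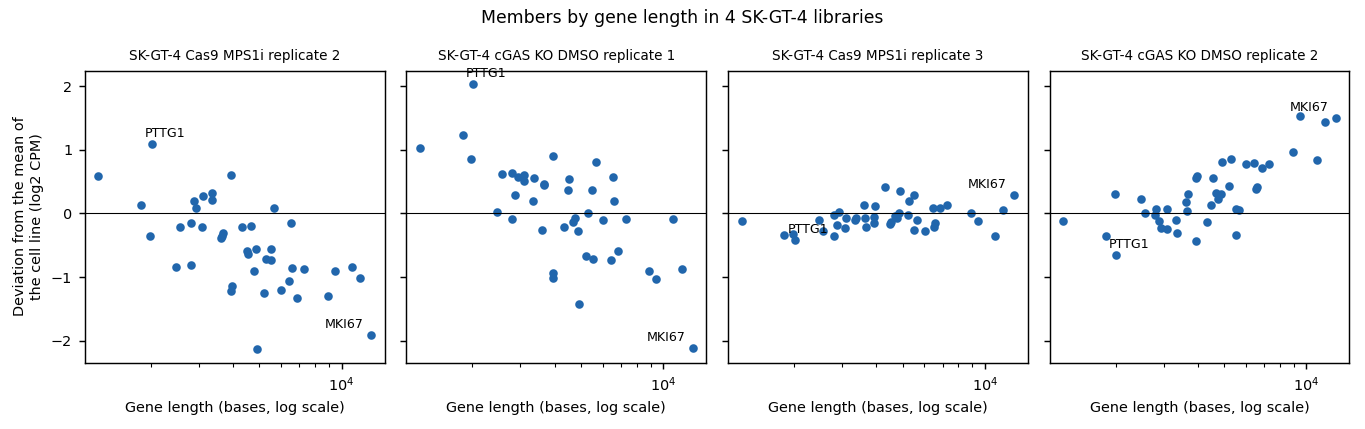
Deviation of each of the 43 genes from its mean in SK-GT-4 (log2, vertical axis) against its transcript length in bases (log scale, horizontal axis) in 4 libraries. In Cas9 MPS1i replicate 2 and cGAS KO DMSO replicate 1 the points fall with length (slopes of -0.589 and -0.727 per doubling), and in the comparators Cas9 MPS1i replicate 3 and cGAS KO DMSO replicate 2 the slopes are 0.0974 and 0.542.

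The first comparison asked how 48 hours of MPS1 inhibition changed these transcripts in each clone. In OE33 Cas9, 40 of the 43 genes had a fold change under 1, against 49.2% of the 20426 genes tested. Their median was -0.34 on the log2 scale (0.788-fold), while the median of all genes was 0.00512. In the OE33 cGAS KO 42 of 43 were under 1, against 49.6% of all genes, with a median of -0.29 (0.818-fold). The median of the members was lower in each batch but small in batch 1: -0.089, -0.375 and -0.427 in batches 1, 2 and 3 of OE33 Cas9, and -0.044, -0.370 and -0.399 in the cGAS KO. All 3 batches were lower for 30 members in OE33 Cas9 (15.9% of all genes) and for 25 in the cGAS KO (13.1%). Fewer cells in G2 and mitosis and less of each RNA per such cell cannot be told apart in bulk RNA.

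No single member passed edgeR's quasi-likelihood test at an adjusted p of 0.01 in either OE33 clone, where the share of all genes called lower was 0% in both and the share called higher was 0.0049% in Cas9 and 0% in the cGAS KO. At an unadjusted p under 0.05, 26 members were lower and 0 higher in OE33 Cas9, against 3.43% and 3.52% of all genes. In the OE33 cGAS KO 21 were lower and 0 higher, against 3.13% and 3.82%. Of the 26 and the 21, 18 genes were in both lists, among them CCNA2, CCNB1, CCNB2, PLK1, AURKA, KIF20A, CENPA, NUF2, TPX2 and UBE2C. The share of all genes in both lists was not computed, and the lists come from one fit of both clones. Without batch 1 these counts of lower members were 31 in Cas9 (4.23% of all genes) and 34 in the cGAS KO (5.7%), without batch 2 they were 9 (1.42%) and 5 (1.04%), and without batch 3 they were 14 (1.35%) and 12 (2.58%). Without the OE33 cGAS KO DMSO library of batch 2, in which CGAS was high, 13 were lower in the cGAS KO (2.29%), and the median of the 43 genes was -0.231. The MPS1i and DMSO libraries did not overlap, with all 3 treated ones lower, for 19 members in OE33 Cas9 (3.9% of all genes) and for 13 in the cGAS KO (2.16%). DESeq2 called 1 member in OE33 Cas9 (0.108% of all genes) and 0 in the cGAS KO (0.0294%), and 17 (4.09%) and 9 (3.48%) on counts adjusted for batch with ComBat-seq. The ComBat-seq step was run within each genotype, and the test after it had no batch term. Its p-values therefore take no account of the batch values removed. When each DMSO library was paired with the MPS1i library of its own clone and batch (a replicate block per genotype and batch), edgeR called 4 members in OE33 Cas9, namely CCNA2, PLK1, AURKA and KIF20A, and 3 in the cGAS KO, namely CCNA2, PLK1 and CENPA, all lower, where 0.455% and 0.494% of all genes were called. For all 3 genes the cGAS KO DMSO library of batch 2 was the highest control. The paired fit was not run without that library.

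Among the regulators of mitotic entry in OE33, the kinase AURKA had the smallest p in the Cas9 clone. It measured 129, 139 and 119.6 CPM in batches 1, 2 and 3 with DMSO and 98.7, 102 and 84.7 CPM with MPS1i, and the groups did not overlap. Its log2 difference was -0.47 (SE 0.108, edgeR adjusted p = 0.319), and in the cGAS KO, with 140.3, 146 and 137 CPM against 126, 113 and 99.6 CPM, it was -0.34 (SE 0.108). CCNA2, which encodes the cyclin A that acts from S phase to early mitosis, went from 140.0, 155 and 134 to 105, 114 and 100.5 CPM in OE33 Cas9 and from 143, 153 and 115 to 114, 104 and 85.6 CPM in the cGAS KO. Its difference was -0.45 in both clones (SE 0.113 in Cas9 and 0.113 in the cGAS KO), with edgeR adjusted p = 0.444 in the cGAS KO. CCNB1 was 283, 312 and 278 CPM with DMSO and 216, 225 and 237 CPM with MPS1i in Cas9, again with no overlap, a difference of -0.39 (SE 0.118), and in the cGAS KO, with 323, 307 and 265 against 260.3, 219 and 219 CPM, it was -0.37 (SE 0.118). PLK1, the kinase that promotes mitotic entry and later cytokinesis, measured 274, 346 and 300.3 CPM with DMSO and 202, 221 and 218 CPM with MPS1i in Cas9. In the cGAS KO its DMSO libraries spread more, at 198, 353 and 211 CPM, against 173, 188 and 155 CPM, and the difference was -0.54 in both (SE 0.144 and 0.144).

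CDK1, their partner, had a smaller difference. It was 238, 234 and 195 CPM with DMSO and 214, 209 and 199 CPM with MPS1i in OE33 Cas9, overlapping groups with a difference of -0.12 (SE 0.116), and -0.13 (SE 0.116) in the cGAS KO. NEK2 had -0.05 (SE 0.109) and -0.09 (SE 0.108) in the same clones, and MELK, a kinase of the same expression program, 0.00 (SE 0.107) and -0.06 (SE 0.106). FOXM1 was lowest in batch 3 under both treatments, at 124, 127 and 88.5 CPM with DMSO and 124, 96.6 and 70.5 CPM with MPS1i in OE33 Cas9, and differed by -0.25 (SE 0.147) there. In the cGAS KO FOXM1 was 91.0, 114 and 99.9 against 107, 111 and 72.6 CPM and differed by -0.12 (SE 0.147). Of the 11 entry regulators, 5 were lower at an unadjusted p under 0.05 in each OE33 clone, against 3.43% of all genes in Cas9 and 3.13% in the cGAS KO.

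The motor proteins, which focus the spindle poles, move chromosomes and build the midzone, had 8 of 10 members lower at that threshold in OE33 Cas9 (3.43% of all genes). In the cGAS KO 3 of 10 were lower (3.13%). KIF20A, a midzone motor needed for cytokinesis, measured 60.8, 75.1 and 64.0 CPM with DMSO and 47.1, 50.1 and 45.8 CPM with MPS1i in Cas9, without overlap, a difference of -0.50 (SE 0.121, edgeR adjusted p = 0.341). In the cGAS KO it was 46.7, 69.0 and 48.7 CPM against 38.5, 45.6 and 35.8 CPM, a difference of -0.46 (SE 0.121). KIF15, which can hold the bipolar spindle together with KIF11, differed by -0.52 (SE 0.215) and -0.40 (SE 0.216). CENPE had -0.66 (SE 0.318) in the cGAS KO and -0.17 (SE 0.325) in Cas9.

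Of the 5 other centromere and kinetochore genes, 4 were lower at an unadjusted p under 0.05 in OE33 Cas9 (3.43% of all genes) and 3 in the cGAS KO (3.13%). CENPA, the histone H3 variant that marks centromeres, had the smallest p in the OE33 cGAS KO. It measured 39.3, 47.6 and 34.9 CPM with DMSO and 31.0, 30.1 and 22.4 CPM with MPS1i, and every treated library was under every control. The difference was -0.56 (SE 0.123, edgeR adjusted p = 0.348), and in Cas9, with 42.5, 52.5 and 38.0 CPM against 31.7, 35.6 and 30.4 CPM, it was -0.46 (SE 0.123). NUF2, a subunit of the NDC80 complex that binds microtubules, had -0.47 (SE 0.145) in Cas9 and -0.49 (SE 0.146) in the cGAS KO. Among the 7 spindle proteins 4 were lower at that threshold in each clone, against the same shares of all genes. HMMR, a spindle pole protein, differed by -0.47 (SE 0.118) and -0.29 (SE 0.117), while NUSAP1 had values of 0.05 and 0.02 (SE 0.172 and 0.175).

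All 4 genes of chromosome separation and proteolysis were lower at an unadjusted p under 0.05 in OE33 Cas9 (3.43% of all genes), and 3 of 4 in the cGAS KO (3.13%). ESPL1, which encodes separase, had the most negative difference of the 43 genes in OE33 Cas9, -0.58 (SE 0.2002), from 38.2, 35.5 and 34.8 to 30.5, 23.1 and 20.0 CPM. UBE2C measured 237, 266 and 196 CPM with DMSO and 222, 205 and 157 CPM with MPS1i in Cas9, overlapping groups, and differed by -0.29 (SE 0.116) and, in the cGAS KO, with 202, 223 and 168 against 192, 164 and 123 CPM, by -0.33 (SE 0.116). Cytokinesis genes gave 1 of 4 in Cas9 and 3 of 4 in the cGAS KO, against the same shares of all genes. RACGAP1, a subunit of centralspindlin, had -0.34 and -0.32 (SE 0.106 and 0.106). PRC1 had the most negative value of the 43 genes in the cGAS KO, -0.70 (SE 0.372) but 0.10 (SE 0.357) in Cas9, neither past an unadjusted p of 0.05.

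The remaining pair acts on chromosomes. TOP2A, the topoisomerase that untangles sister DNA, measured 211, 235 and 202 CPM with DMSO and 207, 198 and 155 CPM with MPS1i in OE33 Cas9, and 198, 238 and 261 against 214, 189 and 206 CPM in the cGAS KO. The groups overlapped in both clones, with differences of -0.24 (SE 0.136) and -0.21 (SE 0.136). MKI67 was 87.7, 93.7 and 139 CPM with DMSO and 116, 46.4 and 61.9 CPM with MPS1i in Cas9. Its batches disagreed in sign, with 0.40, -1.01 and -1.17 on the log2 scale, and its difference of -0.46 had an SE of 0.367. In the cGAS KO MKI67 was 36.1, 119 and 149 against 62.4, 81.2 and 92.0 CPM, a difference of -0.33 (SE 0.363).

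**Figure D3:**
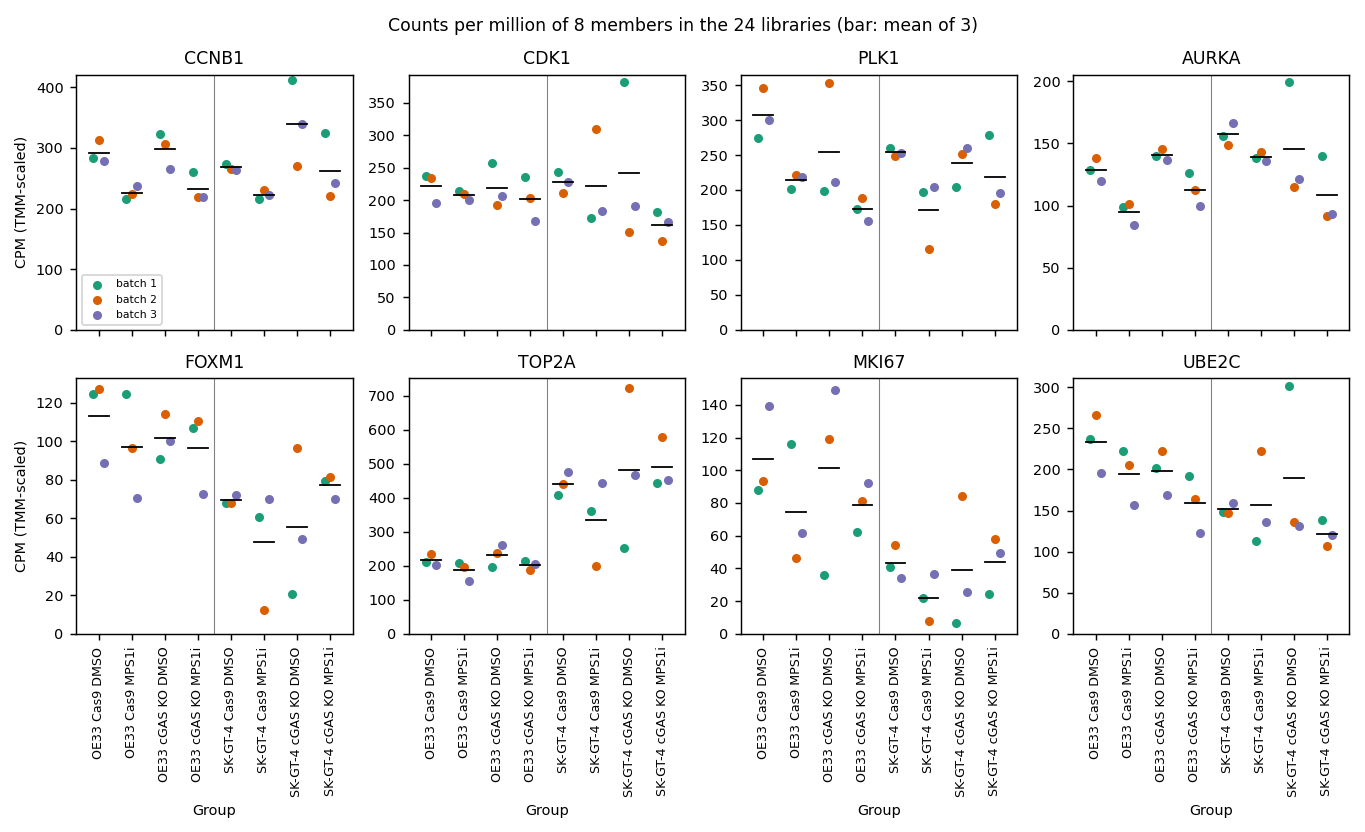
CPM of CCNB1, CDK1, PLK1, AURKA, FOXM1, TOP2A, MKI67 and UBE2C in the 8 groups. Each point is 1 library coloured by batch and each bar is the mean of 3 libraries. In OE33, the MPS1i points of CCNB1 and AURKA lie under the DMSO points of the same clone, and in SK-GT-4 FOXM1 and MKI67 each have 2 points far under the rest.

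In SK-GT-4 the medians were also under 0, and the libraries spread more. The biological coefficient of variation was 33.98% for SK-GT-4 and 14.97% for OE33. In SK-GT-4 Cas9, 40 of 43 genes were under 1, against 46.8% of the 22782 genes tested, with a median of -0.31 (0.806-fold) beside 0.0372 for all genes. The batch medians were -0.258, -0.609 and -0.228, the second resting on the length-dependent MPS1i library, and without both length-dependent libraries the median was -0.235 and 39 of 43 were under 1 (49.1% of all genes). In the SK-GT-4 cGAS KO 30 of 43 were under 1, against 46.4%, with a median of -0.12 (0.918-fold) and batch medians of 0.118, -0.274 and -0.171. The first of these rests on the length-dependent DMSO library. Without both such libraries the median was -0.164 and 36 of 43 were under 1 (49.9%). The 10 longest and the 10 shortest members had medians of -0.458 and -0.209 in Cas9 and of 0.078 and -0.384 in the cGAS KO, so the value of a gene in these comparisons moved with its length. All 3 batches were lower for 28 members in Cas9 (15.2% of all genes) and for 18 in the cGAS KO (11.7%). Every treated library lay under every control for 15 members in Cas9 (3.9%) and for 0 in the cGAS KO (1.77%), where 1 member was above (2.22%). Without both length-dependent libraries, which leaves 2 libraries against 3, these counts were 21 in Cas9 (7.55%) and 3 in the cGAS KO (5.1%), where 1 was above (5.28%), and 36 (30.3%) and 30 (23.3%) members were lower in both complete batches.

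No member was called at an adjusted p of 0.01 in either SK-GT-4 clone by edgeR or by DESeq2 (0 and 2 on counts adjusted with ComBat-seq, where 0.36% and 0.0966% of all genes were called), where 0% of all genes were called up or down by edgeR. Counted at an unadjusted p under 0.05, there were 2 lower members in Cas9 (0.474% of all genes) and 0 in the cGAS KO (0.658%), and 0 higher in Cas9 (2.01%) and 1 in the cGAS KO (0.733%). The 2 were CCNA2 and PLK1. CCNA2 measured 159, 138 and 159 CPM with DMSO and 116, 71.3 and 123 CPM with MPS1i in SK-GT-4 Cas9, with no overlap, a difference of -0.58 (SE 0.232, edgeR adjusted p = 0.981). PLK1 was 260.3, 249 and 253 CPM with DMSO and 196, 115 and 204 CPM with MPS1i, a difference of -0.59 (SE 0.268). In both genes the lowest treated library was the length-dependent one of batch 2, and the other 2 treated libraries were also under every control. Without both length-dependent libraries CCNA2 differed by -0.46 (SE 0.181) and PLK1 by -0.40 (SE 0.188), and 6 members were lower at an unadjusted p under 0.05 in SK-GT-4 Cas9, against 1.36% of all genes. In the cGAS KO 0 were then lower (0.913%) and 1 higher (1.14%). With the replicate block per genotype and batch 6 members in Cas9 and 4 in the cGAS KO were lower at that threshold, against 0.878% and 1.36% of all genes, and 0 were called.

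Other members of the same clone had smaller or uneven differences. CCNB1 was 274, 266 and 264 CPM with DMSO and 216, 231 and 222 CPM with MPS1i in SK-GT-4 Cas9, without overlap, a difference of -0.26 (SE 0.223), and -0.36 (SE 0.223) in the cGAS KO. AURKA was 156, 149 and 167 against 139, 143 and 136 CPM, also without overlap, a difference of -0.18 (SE 0.233). CDK1 was 243, 211 and 228 CPM with DMSO and 172, 309.9 and 184 CPM with MPS1i, a difference of -0.02 (SE 0.336). UBE2C was 148, 147 and 159 against 113, 222 and 136 CPM, a difference of 0.05 (SE 0.342). In both genes the length-dependent library of batch 2 was the highest and the other treated libraries were the lowest of the 6. TOP2A, FOXM1 and MKI67, whose transcripts are longer, were lowest in that library. TOP2A was 408, 442 and 474 CPM with DMSO and 361, 200.04 and 443 CPM with MPS1i, a difference of -0.37 (SE 0.376). FOXM1 was 68.1, 67.9 and 72.1 against 60.4, 12.5 and 70.0 CPM, a difference of -0.53 (SE 0.601). MKI67 had the most negative value in SK-GT-4 Cas9, -0.84 (SE 0.694), from 41.1, 54.1 and 33.9 to 22.1, 7.86 and 36.4 CPM, and PTTG1 the highest, 0.49 (SE 0.563). These values moved when both length-dependent libraries were left out. CDK1 was then -0.45 (SE 0.183), UBE2C -0.32 (SE 0.181) and PTTG1, whose sign turned, -0.33 (SE 0.183). TOP2A was -0.03 (SE 0.193), FOXM1 0.00 (SE 0.181) and MKI67 -0.27 (SE 0.202), all nearer to 0 than before. CCNB1 was -0.37 (SE 0.189) and AURKA -0.27 (SE 0.182).

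In the SK-GT-4 cGAS KO the smallest p belonged to the low-count gene PRC1, with 4, 7 and 6 reads in the DMSO libraries and 31, 23 and 12 reads in the MPS1i libraries. All 3 treated libraries were above all 3 controls, and the difference was 1.66 (SE 0.550, edgeR adjusted p = 0.966). SPC25, an NDC80 complex subunit, followed with -0.62 (SE 0.301), from 66.7, 22.2 and 28.0 to 29.8, 19.8 and 21.2 CPM, overlapping groups. PTTG1 had the most negative difference, -1.07 (SE 0.566), from 338, 52.1 and 79.3 to 92.3, 50.7 and 52.1 CPM, and only the control of batch 1, the length-dependent library, stood apart. CCNA2 and PLK1, the members with the smallest p in the Cas9 clone, had -0.11 (SE 0.232) and -0.15 (SE 0.267). CDK1, UBE2C and AURKA, with transcripts of 1286 to 3931 bases, were also highest in that control. CDK1 was 381, 151 and 191 CPM with DMSO and 182, 136 and 166 CPM with MPS1i, a difference of -0.52 (SE 0.337). UBE2C was 301, 136 and 131 against 138, 107 and 121 CPM, a difference of -0.59 (SE 0.343). AURKA was 199.7, 115 and 122 against 139.9, 91.8 and 93.4 CPM, a difference of -0.40 (SE 0.234). FOXM1, TOP2A and MKI67, with transcripts of 4899 to 12807 bases, were lowest there. FOXM1 was 20.6, 96.4 and 49.3 CPM with DMSO and 79.5, 81.7 and 70.2 CPM with MPS1i, a difference of 0.52 (SE 0.604). MKI67 was 6.79, 84.1 and 25.6 against 24.2, 58.3 and 49.3 CPM, a difference of 0.40 (SE 0.696). TOP2A was 251, 722 and 468 against 444, 577 and 452 CPM, a difference of 0.08 (SE 0.376). All 6 pairs of groups overlapped. Without both length-dependent libraries several differences were nearer to 0, at -0.14 (SE 0.181) for CDK1, -0.16 (SE 0.181) for UBE2C, -0.23 (SE 0.183) for AURKA, -0.19 (SE 0.183) for PTTG1 and -0.26 (SE 0.184) for SPC25. FOXM1 was then 0.15 (SE 0.185), MKI67 0.01 (SE 0.202) and TOP2A -0.19 (SE 0.194), with the sign of TOP2A turned. CCNA2 was -0.27 (SE 0.179), PLK1 -0.33 (SE 0.187), CCNB1 -0.30 (SE 0.188) and PRC1 1.505 (SE 0.597).

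**Figure D4:**
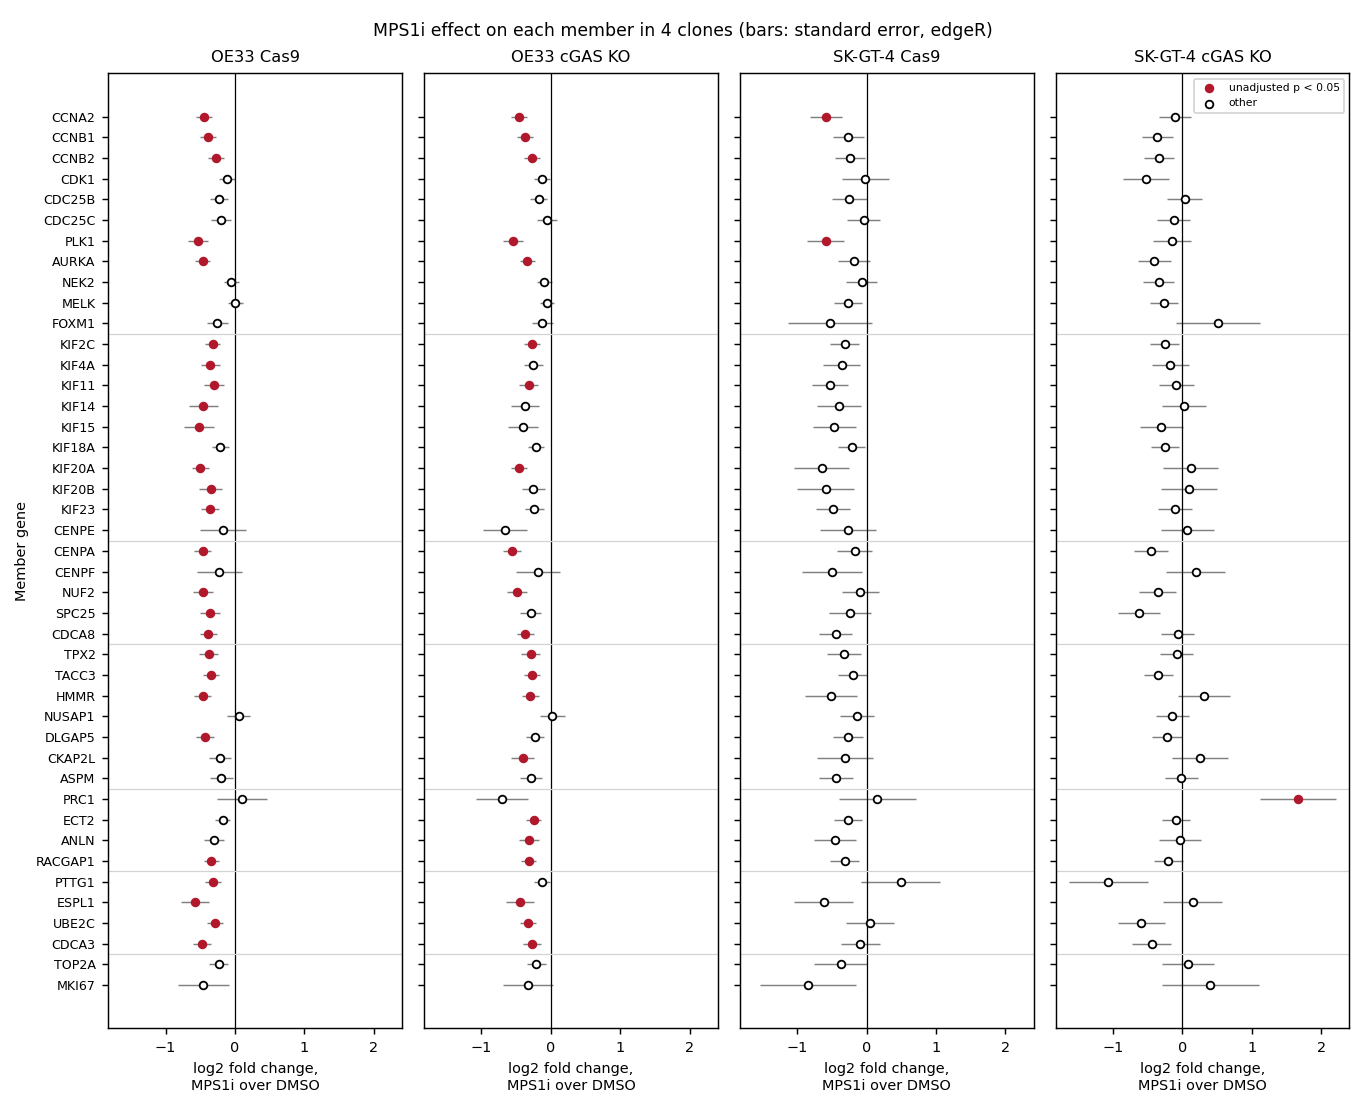
Log2 fold change of MPS1i against DMSO for the 43 genes (one line each, by role) in the 4 clones, with bars of 1 SE and filled red points at an unadjusted p under 0.05. In OE33 Cas9 and OE33 cGAS KO 40 and 42 of the points lie below 0, and the bars are wider in SK-GT-4.

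Across all 4 clones 26 of the 43 genes had a fold change under 1 in each, among them CCNA2, CCNB1, CCNB2, CDK1, PLK1, AURKA, CENPA, NUF2, TPX2 and RACGAP1. The share of all genes under 1 in all 4 clones was not computed. In the single clones it was 49.2% (OE33 Cas9), 49.6% (OE33 cGAS KO), 46.8% (SK-GT-4 Cas9) and 46.4% (SK-GT-4 cGAS KO). The count of 26 includes both length-dependent libraries. Set beside the promoter words, in OE33 Cas9 the median was -0.355 over the 27 members with the word and -0.315 over the 11 without it, and in the OE33 cGAS KO -0.289 and -0.270. In SK-GT-4 these medians were -0.374 and -0.261 in Cas9 and -0.0951 and -0.253 in the cGAS KO. Leaving out both length-dependent libraries gave -0.225 and -0.254 in Cas9 and -0.145 and -0.174 in the cGAS KO.

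The second comparison asked whether the response to MPS1i depended on genotype, as the difference between the Cas9 and the cGAS KO effect. In OE33 the median of the 43 differences was -0.03, and edgeR called 0 members at an adjusted p of 0.01, where 0% of all genes were called. At an unadjusted p under 0.05 edgeR and DESeq2 also gave 0 members, against 0.837% lower and 1.04% higher of all genes in edgeR. The differences of the entry genes were small beside their errors, at -0.02 (SE 0.167) for CCNB1, 0.00 (SE 0.203) for PLK1 and -0.13 (SE 0.152) for AURKA. The smallest p was that of PRC1, 0.80 (SE 0.517, edgeR adjusted p = 1.00), followed by CDCA3, a factor of mitotic entry, and DLGAP5, a spindle protein, both at -0.20 (SE 0.180 and 0.184).

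In SK-GT-4 the median difference was -0.19, and 0 members passed an adjusted p of 0.01 (0% of all genes) or an unadjusted p under 0.05 (0.536% lower and 1.88% higher) in edgeR, and 0 in DESeq2. The values nearest to the threshold were those of PTTG1, 1.56 (SE 0.791, edgeR adjusted p = 0.823), and PRC1, -1.51 (SE 0.778, adjusted p = 0.823). MKI67 and FOXM1 had -1.25 (SE 0.963) and -1.04 (SE 0.838). The comparison sets the length-dependent treated Cas9 library against the length-dependent cGAS KO control, and the 10 longest members had a median of -0.44 and the 10 shortest of 0.163. Without both libraries the median of the 43 genes was -0.102 and the differences were -0.145 for PTTG1, -1.11 (SE 0.818) for PRC1, -0.28 (SE 0.278) for MKI67 and -0.15 (SE 0.251) for FOXM1.

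The third comparison set the cGAS KO against the Cas9 clone under the same treatment. In OE33 the median of the 43 genes lay near 0, at -0.04 with DMSO and 0.01 with MPS1i. In SK-GT-4 the medians were 0.14 with DMSO and 0.31 with MPS1i, and without both length-dependent libraries 0.0986 and 0.158. No member was called at an adjusted p of 0.01 in any of these 4 contrasts by edgeR, although 0.465% of all genes were called lower and 1% higher in OE33 with DMSO, 0.955% and 1.88% in OE33 with MPS1i, 0.658% and 1.1% in SK-GT-4 with DMSO, and 0.597% and 0.812% in SK-GT-4 with MPS1i. At an unadjusted p under 0.05 edgeR gave 6 lower and 2 higher members in OE33 with DMSO (8.2% and 9.28% of all genes) and 7 and 3 with MPS1i (9.95% and 11.3%). In SK-GT-4 it gave 1 lower and 4 higher with DMSO (7.93% and 9.53%) and 1 and 6 with MPS1i (9.28% and 9.17%). In SK-GT-4 with MPS1i the groups did not overlap for 14 members, all higher in the cGAS KO (11.5% of all genes), and for 0 lower (11.5%), and the 10 longest members had a median of 0.615 and the 10 shortest of 0.105. When both length-dependent libraries were left out, 14 members were apart and higher (16.2%) and 2 apart and lower (17%). At an adjusted p of 0.05 the count with MPS1i would be 1 higher in OE33 (4.71%), DLGAP5, and 1 higher in SK-GT-4 (2.48%), ASPM. DESeq2 called 0 (DMSO) and 1 (MPS1i) members for OE33, and 1 and 2 for SK-GT-4, where it called 3.61%, 5.8%, 6.56% and 6.36% of all genes in the same order.

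The smallest p values in OE33 were those of RACGAP1 and ASPM with DMSO and of DLGAP5 and RACGAP1 with MPS1i. RACGAP1 measured 137, 157 and 122 CPM in Cas9 and 108, 127 and 98.0 CPM in the cGAS KO with DMSO, and 119, 118 and 95.9 against 94.7, 100.1 and 75.5 CPM with MPS1i. The differences were -0.35 (SE 0.106, edgeR adjusted p = 0.0771) and -0.32 (SE 0.106, adjusted p = 0.0751), with overlapping groups under both treatments. ASPM, a spindle pole protein, was 17.2, 24.4 and 25.9 CPM in Cas9 and 20.8, 37.4 and 39.0 CPM in the cGAS KO with DMSO, overlapping groups, a difference of 0.48 (SE 0.164, edgeR adjusted p = 0.115). DLGAP5 was 38.9, 32.5 and 29.9 CPM in Cas9 and 48.1, 48.6 and 46.5 CPM in the cGAS KO with MPS1i, without overlap, a difference of 0.48 (SE 0.131, edgeR adjusted p = 0.0331). PLK1 differed by -0.33 (SE 0.144) with DMSO, and when the OE33 cGAS KO DMSO library of batch 2 with the high CGAS was left out it was called at -0.55 (SE 0.123, edgeR adjusted p = 0.00682). PLK1 was the only member called in that fit, where 4.77% of all genes were called. The share of members called was thus not above that of all genes.

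In SK-GT-4, CDC25B, a phosphatase that activates CDK1, was 192, 158 and 149.8 CPM in Cas9 and 100.3, 105 and 64.4 CPM in the cGAS KO with DMSO. The groups did not overlap, and the difference was -0.90 (SE 0.256, edgeR adjusted p = 0.0754). CENPA was 32.4, 39.1 and 40.7 CPM in Cas9 and 81.8, 56.0 and 69.5 CPM in the cGAS KO, also apart, a difference of 0.86 (SE 0.249, adjusted p = 0.0829). With MPS1i the smallest p values were those of ASPM, with 21.8, 19.0 and 26.7 CPM in Cas9 and 37.4, 54.0 and 43.6 CPM in the cGAS KO, and of ANLN, the contractile ring protein anillin, with 262, 168 and 320.1 against 561, 516 and 494 CPM. Neither pair of groups overlapped, and the differences were 0.97 (SE 0.244, edgeR adjusted p = 0.0494) and 1.08 (SE 0.301, adjusted p = 0.0700). Without both length-dependent libraries edgeR called 5 members in each contrast, of which CDC25B (-0.92 with DMSO and -0.86 with MPS1i), CENPA (0.74 and 0.68), ASPM (0.64 and 0.73) and ANLN (0.86 and 0.83) were called in both, CENPE (1.19) only with DMSO and HMMR (0.63) only with MPS1i, a difference between treatments that was not tested. In these fits 13.3% of all genes were called with DMSO and 11.6% with MPS1i, so the share of members called was not above that of all genes.

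These differences between clones were set beside those of neighbouring genes on the chromosome. For each member the median difference was taken over the genes within 10 Mb of it that had a mean of at least 50 counts, 33 to 228 genes in OE33 and 37 to 243 in SK-GT-4. In OE33 with DMSO the neighbours of 8 members had a median beyond 0.2 in either direction, and all 8 members had the sign of their neighbours. ASPM and KIF14, a motor of cytokinesis, lie on chromosome 1 in a stretch with a median of 0.332, although the median over the whole chromosome was 0.00146. RACGAP1 and ESPL1 lie on chromosome 12 among neighbours at -0.283 (whole chromosome -0.234), and DLGAP5 on chromosome 14 among neighbours at 0.352 (0.294). With MPS1i 8 of 9 such members shared the sign. In SK-GT-4 with DMSO 9 of 12 did, with medians of 0.482 around CENPA on chromosome 2, -0.441 around CDC25B on chromosome 20 and 0.39 around ANLN on chromosome 7, while CDK1, UBE2C and SPC25 had the opposite sign. With MPS1i 11 of 13 shared it. Over all 43 members the sign was shared by 35 with DMSO and 23 with MPS1i in OE33, and by 29 and 30 in SK-GT-4. The share of all genes with the sign of their neighbours was not computed. Across the 43 members Pearson's r between the difference of the member and that of its neighbours reached 0.695 (DMSO) and 0.545 (MPS1i) for OE33, and 0.584 and 0.421 for SK-GT-4, a description in which members on one chromosome share neighbours and all points share the same libraries. For the MPS1i effects 0 members had neighbours beyond 0.2. The part of the neighbours in the differences between clones was not tested.

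**Figure D5:**
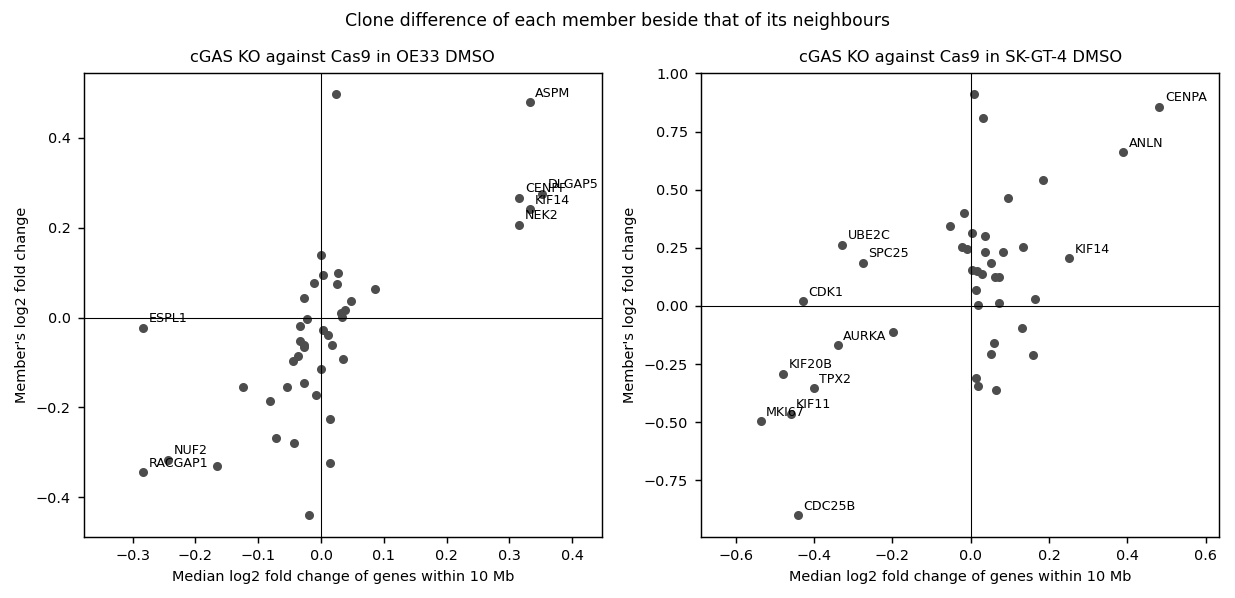
Log2 difference of the cGAS KO from the Cas9 clone with DMSO for each of the 43 genes (vertical axis) against the median difference of the genes within 10 Mb (horizontal axis), in OE33 and SK-GT-4. ASPM, DLGAP5 and RACGAP1 in OE33 and CENPA, ANLN and CDC25B in SK-GT-4 lie on the side of 0 of their neighbours.

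The last comparison set the Cas9 DMSO clones of the lines against each other, OE33 minus SK-GT-4. Here edgeR called 6 of 43 members at an adjusted p of 0.01, 3 higher and 3 lower in OE33, against 10.9% and 13.5% of the 25181 genes tested, a share of members under that of all genes. The median of the 43 was 0.07 and that of all genes -0.144. NUF2 had the smallest p, with 26.6, 27.2 and 28.8 CPM in OE33 and 77.0, 87.0 and 89.8 CPM in SK-GT-4, a difference of -1.62 on the log2 scale (SE 0.225, edgeR adjusted p = 3.45e-06). NEK2, with 46.0, 43.5 and 36.5 CPM in OE33 and 83.8, 68.6 and 70.3 CPM in SK-GT-4, had a difference of -0.82 (SE 0.194, adjusted p = 0.00166). TOP2A was 211, 235 and 202 CPM in OE33 and 408, 442 and 474 CPM in SK-GT-4, a difference of -1.03 (SE 0.290, adjusted p = 0.00749). None of these groups overlapped.

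The 3 members higher in OE33 were TACC3, a spindle microtubule protein bound by AURKA, KIF20B, a motor of cytokinesis, and PRC1. TACC3 measured 134, 125 and 127 CPM in OE33 and 70.5, 85.2 and 78.2 CPM in SK-GT-4, a difference of 0.72 (SE 0.181, edgeR adjusted p = 0.00297). KIF20B measured 45.2, 50.6 and 46.6 against 16.9, 21.6 and 23.0 CPM, a difference of 1.22 (SE 0.318, adjusted p = 0.00408). PRC1 had 15, 26 and 29 reads in OE33 and 4, 9 and 15 reads in SK-GT-4, a difference of 1.63 (SE 0.474, adjusted p = 0.00908). Among the promoters shown above, these 6 genes cover every arrangement in the whole window, with both words in PRC1, TOP2A and KIF20B, the CHR word alone in NUF2, the CCAAT word alone in NEK2 and neither in TACC3. Leaving out 1 batch at a time left between 1 and 5 members called: 1 without batch 1, 5 without batch 2 and 1 without batch 3, where 19.2%, 23.3% and 12.4% of all genes were called. ESPL1 (1.04, adjusted p = 0.0212) and CDCA3 (0.62, adjusted p = 0.0373) came next outside the threshold in edgeR.

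Other genes of the mitotic program were read beside the 43 for the MPS1i effect. Of 30 further G2/M genes 11 were lower and 0 higher at an unadjusted p under 0.05 in OE33 Cas9 (3.43% and 3.52% of all genes), with a median of -0.259. In the cGAS KO 16 and 0 were (3.13% and 3.82%), and the median was -0.327. For SK-GT-4 the counts were 1 and 0 in Cas9 (0.474% and 2.01%) and 0 and 0 in the cGAS KO (0.658% and 0.733%), with medians of -0.379 and -0.153. Without both length-dependent libraries they were 3 and 0 (1.36% and 3.3%) and again 0 and 0 (0.913% and 1.14%), with medians of -0.237 and -0.146. The smallest p in OE33 Cas9 was that of GTSE1, a microtubule protein that restrains p53 in G2, at -0.56 (SE 0.122, edgeR adjusted p = 0.269). Of 10 spindle checkpoint genes 6 were lower in OE33 Cas9 (3.43% of all genes) and 4 in the cGAS KO (3.13%). They were led in both by CDC20, the activator of the anaphase-promoting complex, at -0.56 (SE 0.122) and -0.51 (SE 0.122). None of the 10 passed that threshold in SK-GT-4. Without both length-dependent libraries 1 was lower in each clone, against 1.36% of all genes in Cas9 and 0.913% in the cGAS KO. TTK, the inhibited kinase itself, was 40.7, 43.03 and 40.2 CPM with DMSO and 42.0, 37.4 and 36.0 CPM with MPS1i in OE33 Cas9, overlapping groups, and differed by -0.13 (SE 0.116). In SK-GT-4 Cas9 it was 81.3, 72.4 and 77.0 against 64.2, 50.5 and 64.2 CPM, without overlap, a difference of -0.37 (SE 0.205).

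The regulators of these promoters and the proteolysis machinery had medians nearer to 0 in OE33. Of 18 genes of the MuvB, RB and E2F families 2 were lower and 1 higher at an unadjusted p under 0.05 in OE33 Cas9 (3.43% and 3.52% of all genes), with a median of -0.107. In the OE33 cGAS KO 1 was lower and 1 higher (3.13% and 3.82%), with a median of -0.185. E2F4, the repressor E2F of the DREAM complex, had the smallest p in both OE33 clones at -0.38 (SE 0.118) and -0.40 (SE 0.118). Of 17 genes of the anaphase-promoting complex and its partners 2 were lower and 1 higher in OE33 Cas9 and 2 and 0 in the cGAS KO, against the same shares of all genes, with a median of -0.146 in each. UBE2S, which extends ubiquitin chains on this complex, had the smallest p there at -0.43 (SE 0.138) in OE33 Cas9. In SK-GT-4 the regulators had medians of -0.294 in Cas9 and -0.0456 in the cGAS KO, and the complex -0.0147 and -0.288. Those of the 43 genes were -0.311 and -0.124. Without both length-dependent libraries the regulators had -0.186 and -0.1015, the complex -0.186 and -0.106, and the 43 genes -0.235 and -0.164. No gene of these lists was called at an adjusted p of 0.01 in edgeR in any MPS1i comparison.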

How the data were processed

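Poly(A)-selected RNA of 24 libraries was sequenced. Per the labels, the authors aligned reads to GRCh38 with HISAT2 2.0.5 and deposited raw gene counts from featureCounts 1.5.0 (the strand setting is not given in the sources used here). From these counts edgeR 4.0.16 (R 4.3.3, limma 3.58.1) fitted quasi-likelihood models with TMM factors, group and batch, per cell line (12 libraries) or over all 24 for the comparison of lines, after the study's filter (total of at least 5 counts, above 0 in at least 4 libraries). Genes were called at a Benjamini-Hochberg adjusted p of at most 0.01 over all genes tested. Alternatives used DESeq2 1.42.0, ComBat-seq (sva 3.50.0), other filters, blocks and libraries. Per-library levels are CPM with TMM factors. RPKM used the table's gene lengths. The script was tested on simulated data with 200 genes set 4-fold lower in the Cas9 MPS1i group and no batch or length effect. Changes as small as those of the members were not simulated. Same-batch DMSO and MPS1i libraries, which the labels pair by batch, had correlated deviations (r of 0.187 to 0.55 in OE33 and 0.0868 to 0.532 in SK-GT-4). The members and all gene lists were chosen with earlier results of these data known. Per-library values were given for CCNB1, CDK1, PLK1, AURKA, FOXM1, TOP2A, MKI67 and UBE2C, for the 2 members with the smallest p in a comparison and for called members. The largest rise and fall of a comparison were also named, though not always between the cGAS KO and Cas9, and of each further list the gene with the smallest p. The lists were other G2/M genes, spindle checkpoint, MuvB with RB and E2F, the anaphase-promoting complex, CDK inhibitors with p53 targets, and S phase. Explanations were not tested.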

Additional observations from a re-analysis of the deposited data

Results flagged for a closer look

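For 6 differences between the lines, every batch of one line moved one way and every batch of the other the opposite way. None of these differences was tested, because the lines were fitted apart. PRC1 differed by -2.362 on the log2 scale in the MPS1i effect of the cGAS KO clones, at -0.70 (SE 0.372) in OE33 and 1.66 (SE 0.55) in SK-GT-4, on 4 to 31 reads per library. CENPA differed by -1.012 in the cGAS KO against Cas9 with DMSO, at -0.16 (SE 0.122) in OE33 and 0.86 (SE 0.249) in SK-GT-4, and by -0.8268 with MPS1i, at -0.25 (SE 0.124) and 0.57 (SE 0.249). RACGAP1 differed by -0.5278 with DMSO, at -0.35 (SE 0.106) in OE33 and 0.18 (SE 0.207) in SK-GT-4, and by -0.6195 with MPS1i, at -0.32 (SE 0.106) and 0.30 (SE 0.207). NEK2 differed by 0.6449 with MPS1i, at 0.16 (SE 0.109) in OE33 and -0.48 (SE 0.226) in SK-GT-4. Each of these SK-GT-4 values includes a length-dependent library. Without both such libraries CENPA was 0.74 with DMSO and 0.68 with MPS1i in SK-GT-4. The neighbours of CENPA in SK-GT-4, and those of RACGAP1 and NEK2 in OE33, had medians beyond 0.2 between the clones.

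Within SK-GT-4, CCNA2 in the cGAS KO against Cas9 was lower in every batch with DMSO, at -0.21 (SE 0.231), and higher in every batch with MPS1i, at 0.27 (SE 0.231). The difference of -0.4759 was tested as the genotype difference of the MPS1i effect and did not pass, with an adjusted p of 0.823 in edgeR. In batch 3 the clones were nearly equal. Relative to the SK-GT-4 mean, Cas9 and cGAS KO stood at 0.346 and 0.344 with DMSO and at -0.029 and -0.021 with MPS1i. Batch 1 with DMSO and batch 2 with MPS1i each rest on a length-dependent library.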

How the results depend on the processing

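The medians of the MPS1i effect stayed under 0 in all 4 clones under every alternative run. Shares of all genes called in the same fit stand in parentheses. Members called for MPS1i in OE33 Cas9 numbered 0 as reported (0.0049%), 1 with DESeq2 (0.108%), 4 with the replicate block per genotype and batch (0.455%), 17 with ComBat-seq and DESeq2 (4.09%), and 5 with that block and a length offset (0.881%). In the OE33 cGAS KO they numbered 0 (0%), and 1 without the count filter (0.543%), 3 with the block (0.494%), 9 with ComBat-seq (3.48%) and 3 with the block and length offset (0.93%). In the SK-GT-4 cGAS KO ComBat-seq gave 2 (0.0966%). Without any replicate block 16 members in OE33 Cas9 and 8 in the OE33 cGAS KO were lower at an unadjusted p under 0.05, against 0.999% and 1.23% of all genes. Leaving out a batch moved these counts between 9 and 31 in Cas9 and between 5 and 34 in the cGAS KO, the lowest both without batch 2. For the cGAS KO against Cas9, 1 member was called in OE33 with DMSO without OE33 cGAS KO DMSO replicate 2 (4.77%), and in OE33 with MPS1i 1 with DESeq2 (5.8%) and 1 at an adjusted p of 0.05 (7.98%). For SK-GT-4 with DMSO, DESeq2 called 1 (6.56%), and leaving out both length-dependent libraries 5 (13.3%), also with the length offset (13.7%). With MPS1i DESeq2 called 2 (6.36%), an adjusted p of 0.05 gave 1 (4.47%), and leaving out both libraries 5 (11.6%), also with the length offset (12%). Between the lines 1 to 5 members were called when a batch was left out (12.4% to 23.3%). The median genotype difference in OE33 was -0.068 without OE33 cGAS KO DMSO replicate 2 and between -0.032 and 0.00405 when a batch was left out. The PTTG1 genotype difference in SK-GT-4 lay between 1.08 and 2.18 when a batch was left out, and reversed from 1.56 to -0.145 without both length-dependent libraries and to -0.121 with the length offset as well. Alternatives with a length offset were chosen after seeing the data. Apart from the samples left out, the cause of these changes was not tested. Counts of 4 to 31 reads limit PRC1.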

Other observations

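Genes that restrain the cell cycle were read beside the mitotic genes for the MPS1i effect. Of 15 CDK inhibitors and p53 targets tested in OE33, 0 were lower and 5 higher at an unadjusted p under 0.05 in Cas9 (3.43% and 3.52% of all genes), with a median of 0.144. In the cGAS KO 0 and 3 were (3.13% and 3.82%), and the median was 0.077. Of 13 tested in SK-GT-4, 0 were lower and 1 higher in Cas9 (0.474% and 2.01%), with a median of 0.117. In the cGAS KO 0 and 0 were (0.658% and 0.733%), with a median of 0.0815. When both length-dependent libraries were left out, 0 were lower and 4 higher in SK-GT-4 Cas9 (1.36% and 3.3%), with a median of 0.0562. In the cGAS KO 0 and 0 were (0.913% and 1.14%), with a median of 0.0905. CDKN1A, which encodes the CDK inhibitor p21, had the smallest p in OE33 Cas9. It measured 115, 49.2 and 59.5 CPM with DMSO and 121, 87.6 and 85.8 CPM with MPS1i, overlapping groups, a difference of 0.46 (SE 0.146, edgeR adjusted p = 0.522). Its largest differences lay between clones: with DMSO it rose in the OE33 cGAS KO against Cas9 by 0.83 (SE 0.145, edgeR adjusted p = 0.00355), with 214, 77.1 and 119 CPM in the cGAS KO. CDKN1C, another CDK inhibitor, rose in the OE33 cGAS KO against Cas9 with MPS1i by 1.30 (SE 0.249, adjusted p = 0.00446). In SK-GT-4 the same contrast had the opposite sign, at -1.31 (SE 0.266, edgeR adjusted p = 0.0195), which did not pass 0.01, and the difference between the lines was not tested.

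Of 16 S phase genes 2 were lower and 0 higher at an unadjusted p under 0.05 in OE33 Cas9 (3.43% and 3.52% of all genes), with a median of -0.209. In the OE33 cGAS KO 4 and 0 were (3.13% and 3.82%), with a median of -0.195. The counts were 3 and 0 in SK-GT-4 Cas9 (0.474% and 2.01%), with a median of -0.421. They were 0 and 0 in the SK-GT-4 cGAS KO (0.658% and 0.733%), with a median of -0.15. Leaving out both length-dependent libraries, they were 7 and 0 in Cas9 (1.36% and 3.3%), with a median of -0.349. In the cGAS KO they were then 1 and 0 (0.913% and 1.14%), with a median of -0.205. RRM2, a subunit of ribonucleotide reductase, had the smallest p in OE33 Cas9 at -0.36 (SE 0.144), and MCM7, a subunit of the replicative helicase, in the OE33 cGAS KO at -0.48 (SE 0.156). None of these was called at an adjusted p of 0.01 in edgeR.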
